A study of Mus musculus with 4 samples.

Results

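The 9 genes described here encode the cargo of cytotoxic granules and products that go with it. They are the granzymes Gzma, Gzmb, Gzmk and Gzmm, the pore former Prf1, the granule membrane protein Nkg7, the protease cathepsin W (Ctsw), the chemokine Ccl5 and the receptor Klrg1. They were taken by gene symbol from the 32285 genes of the count tables, and all 9 were found, each under 1 Ensembl identifier. Their levels were followed in 4 classes of lymphocyte, CD8 T, natural killer, gamma delta T and CD4 T cell-like cells, in each mouse.

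Whole lung came from 4 female mice of the FVB/NJ strain, 13 weeks old, all carrying the MMTV-PyMT transgene, in which a mouse mammary tumour virus promoter drives the polyoma middle T oncogene in mammary epithelium. From 8 weeks of age 2 mice carried a placebo pellet and 2 mice a pellet of 5 mg tamoxifen with release over 60 days, in both groups for 5 weeks. Tamoxifen is a selective oestrogen receptor modulator. Lungs were perfused and digested with enzymes, and unsorted cells were profiled by 10x Genomics single-cell RNA sequencing of transcript 5′ ends. The mouse is the replicate (n = 2 per group), so p-values are set against differences between mice and not between cells. No group without the transgene or without a pellet was compared.

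Cytotoxic lymphocytes kill by releasing secretory granules onto a target cell. Perforin opens the target's membrane, and granzymes, which are serine proteases, enter and cleave proteins inside it. Natural killer cells hold filled granules before they meet a target, whereas CD8 T cells make most of this cargo only after antigen has activated them, and naive CD8 T cells carry little of it.

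The 4 libraries held 7272 to 10168 barcodes and 32646505 to 37285982 UMIs (unique molecular identifiers, each counting 1 captured transcript), and 6674 to 7484 cells per library were kept, with a median of 2626 to 4064 UMIs. Pairs of libraries shared 77 to 128 barcodes. Classes were rebuilt from clusters made without the members, so their sizes depend on those clusters. In the order placebo 1, placebo 2, tamoxifen 1 and tamoxifen 2, there were 181, 80, 243 and 123 CD8 T cell-like cells, 87, 32, 49 and 41 natural killer cell-like cells, 14, 21, 19 and 18 gamma delta T cell-like cells, and 586, 222, 535 and 396 CD4 T cell-like cells. The natural killer cluster had a UMI of Ncr1 in 96.7% and of Cd3e in 2.87% of its cells, and the gamma delta cluster had a UMI of Trdc in 65.3%, of Cd4 in 1.39% and of Cd8a in 0% of its cells. Levels below are CPM, the UMIs of a gene per 1000000 UMIs of the class in that mouse. In the gamma delta class 1 UMI is worth 10.7 to 18.3 CPM, so its low values are coarse.

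All 9 members are protein-coding genes (GENCODE coordinates, GRCm38, the mm10 build). Gzma, on chromosome 13 from 113093825 to 113100981, and Gzmk, on the same chromosome from 113171608 to 113225908, lie close together on the minus strand. Gzmb lies on chromosome 14 from 56258838 to 56262260 (minus strand). Gzmm, from 79689020 to 79695261, and Prf1, from 61297833 to 61304680, are both on chromosome 10 (plus strand). Nkg7 spans chromosome 7 from 43437073 to 43438249 (plus strand). The minus strand carries Ccl5 (chromosome 11, 83525778 to 83530518), Ctsw (chromosome 19, 5465043 to 5468507) and Klrg1 (chromosome 6, 122270596 to 122282882).

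The promoters of 3 granzyme genes and of Prf1 are shown because these genes split by cell class in the lung: Gzma, Gzmb and Prf1 were highest in natural killer cell-like cells, and Gzmk had no UMI there. Each run is the RefSeq window on GRCm38.p6 from 250 bases before to 50 bases after the annotated start, on the gene's strand, with 2 motifs in capitals on either strand. They are TCACAC, the half-site bound by T-box factors such as T-bet and Eomes (GTGTGA on the other strand), and ACCACA, bound by RUNX factors (TGTGGT on the other strand). These letters do not overlap each other in the windows shown.
Gzma, chr13:113100932-113101231 (-): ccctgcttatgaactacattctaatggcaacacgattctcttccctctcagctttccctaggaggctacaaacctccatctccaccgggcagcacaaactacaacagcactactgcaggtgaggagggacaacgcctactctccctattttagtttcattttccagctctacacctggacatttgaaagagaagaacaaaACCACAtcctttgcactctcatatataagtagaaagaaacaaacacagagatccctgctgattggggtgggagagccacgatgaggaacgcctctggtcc
Gzmb, chr14:56262285-56262584 (-): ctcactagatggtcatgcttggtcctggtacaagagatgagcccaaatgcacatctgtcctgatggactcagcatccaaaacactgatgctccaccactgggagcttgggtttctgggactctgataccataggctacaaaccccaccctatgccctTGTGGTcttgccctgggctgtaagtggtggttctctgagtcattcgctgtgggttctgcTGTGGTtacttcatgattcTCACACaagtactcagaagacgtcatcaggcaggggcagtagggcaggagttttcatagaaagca
Gzmk, chr13:113180916-113181215 (-): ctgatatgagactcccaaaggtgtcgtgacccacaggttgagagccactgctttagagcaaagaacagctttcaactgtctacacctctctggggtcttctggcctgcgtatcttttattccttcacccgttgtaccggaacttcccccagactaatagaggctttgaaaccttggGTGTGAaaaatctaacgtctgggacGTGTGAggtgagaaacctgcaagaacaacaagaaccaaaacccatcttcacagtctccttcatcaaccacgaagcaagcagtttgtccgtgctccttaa
Prf1, chr10:61297586-61297885 (+): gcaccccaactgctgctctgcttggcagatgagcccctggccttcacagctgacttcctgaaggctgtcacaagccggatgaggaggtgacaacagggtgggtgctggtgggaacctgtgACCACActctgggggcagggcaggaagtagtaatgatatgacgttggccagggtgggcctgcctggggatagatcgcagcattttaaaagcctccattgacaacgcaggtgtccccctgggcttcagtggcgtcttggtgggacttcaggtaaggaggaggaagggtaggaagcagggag
Windows were found for 6 of the 9 members. Gzmm had 2 windows, so that there were 7. The T-box letters stood in 4 of the 7 windows (Gzmb, Gzmk, Nkg7 and 1 of Gzmm) and the RUNX letters in 5 (Gzma, Gzmb, Prf1, Nkg7 and the other of Gzmm). Among all 32851 windows of this length, 14.5% held the T-box letters and 16.8% the RUNX letters. The windows of Gzmb and Nkg7 held both, as did 2.92% of all windows. Gzmb had 1 match to the T-box letters and 2 to the RUNX letters. Gzmk held 2 of the T-box letters and none of the RUNX letters. The RefSeq start of Gzmk lies inside the longer GENCODE gene. A match is a run of letters and not evidence of binding.

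Across the lung, granzyme A was a natural killer cell transcript. Gzma stood at 6420.1 ± 565 CPM in natural killer cell-like cells (mean ± SD over 4 mice), and 3964 of its 5058 UMIs in kept cells (78.4%) were in these 209 cells. The next class in the order of 20 classes with enough cells, without overlap, was the interstitial macrophage-like cells, at 25.2 ± 50.5 CPM. That next value rested on 2 cells of placebo 1, one of which held 138 of the 164 UMIs of its class. In CD8 T cell-like cells Gzma had 32 UMIs in 8 of 627 cells.

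Gzmb, the granzyme that cleaves caspases, was at 772 ± 182 CPM in natural killer cell-like cells, which held 49.2% of its 899 UMIs. Regulatory T cell-like cells followed at 72.9 ± 81.1 CPM and CD8 T cell-like cells at 16.7 ± 25.9 CPM, and the ranges of these neighbours overlapped. A further 12.2% of Gzmb UMIs lay in 10 of 42 basophil or mast cell-like cells, a class too small for the order of levels, where the mice stood at 623, 314, 0 and 1231 CPM. The mouse at 0, tamoxifen 1, had 7 such cells.

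Gzmk, a granzyme with trypsin-like activity, lay in another class. Of its 72 UMIs, 58 (80.6%) were in CD8 T cell-like cells, at 18.5 ± 24.3 CPM, and none was in natural killer cell-like cells, where 0 of 209 cells allows a share of cells with a UMI of up to 1.44%, at a median of 2442 UMIs per cell. Such limits hold for detection, not for expression. In the CD8 class placebo 1 had 22.8 CPM, tamoxifen 1 had 51.2 CPM, and placebo 2 and tamoxifen 2 had none. Gzmm, the granzyme that cleaves after methionine, was rare, with 102 UMIs in all. It stood at 12.2 ± 14.3 CPM in natural killer and 12.0 ± 4.59 CPM in CD8 T cell-like cells, which did not differ beyond their spread, and 20 of its UMIs lay in mesothelial and 14 in ciliated cell-like cells.

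Prf1, the pore former, had the same leading class as Gzma and Gzmb. It was at 872 ± 150 CPM in natural killer, 47.2 ± 8.85 in CD8 T and 18.7 ± 3.75 in CD4 T cell-like cells, and each class lay apart from the next in all 4 mice. A Prf1 UMI was found in 163 of 209 natural killer (78%), 96 of 627 CD8 T (15.3%) and 89 of 1739 CD4 T cell-like cells (5.12%). B cell-like cells, taken as a class that should lack it, had 1.20% at a median of 3099 UMIs per cell, against 2823 in CD4 T cell-like cells.

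Nkg7, which aids granule release, was at 4549.7 ± 605 CPM in natural killer and 743 ± 216 CPM in CD8 T cell-like cells, with no overlap between the classes. It was present well beyond cells with granzymes: 470 of 627 CD8 T cell-like cells (75.0%) had a UMI, against 0.115% of B cell-like and 0.822% of fibroblast-like cells. Ctsw, a papain-type protease expressed mainly in cytotoxic lymphocytes, was at 976 ± 46.9 CPM in natural killer and 304 ± 49.9 CPM in CD8 T cell-like cells. In gamma delta T cell-like cells Ctsw stood at 249 ± 124 CPM, overlapping the CD8 class, and 36 of 72 cells had a UMI.

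Ccl5, a chemokine that draws T cells, monocytes and eosinophils, was at 19370.2 ± 2071 CPM in natural killer and 2805 ± 2437 CPM in CD8 T cell-like cells. Mature dendritic cells, which leave tissue for lymph nodes, were another source. The 43 mature dendritic cell-like cells had 10756 of the 39147 Ccl5 UMIs (27.5%), and the 209 natural killer cell-like cells had 11846. The level in the dendritic class was 16994, 39924, 38526 and 17000.3 CPM in placebo 1, placebo 2, tamoxifen 1 and tamoxifen 2. With 4 to 15 such cells per mouse, the class was too small for the order of levels. Gamma delta T cell-like cells had no Ccl5 UMI in 72 cells, which allows a share of cells with a UMI of up to 4.17%, while 33 of 90 group 2 innate lymphoid cell-like cells had one.

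Klrg1, an inhibitory receptor for cadherins that marks late effector cells, was at 316 ± 98.9 CPM in natural killer and 298 ± 108 CPM in regulatory T cell-like cells, a difference within their spread, and these classes held 34.8% and 38.1% of its 515 UMIs. In CD8 T cell-like cells it was at 3.49 ± 4.97 CPM, with 9 UMIs.

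**Figure D1:**
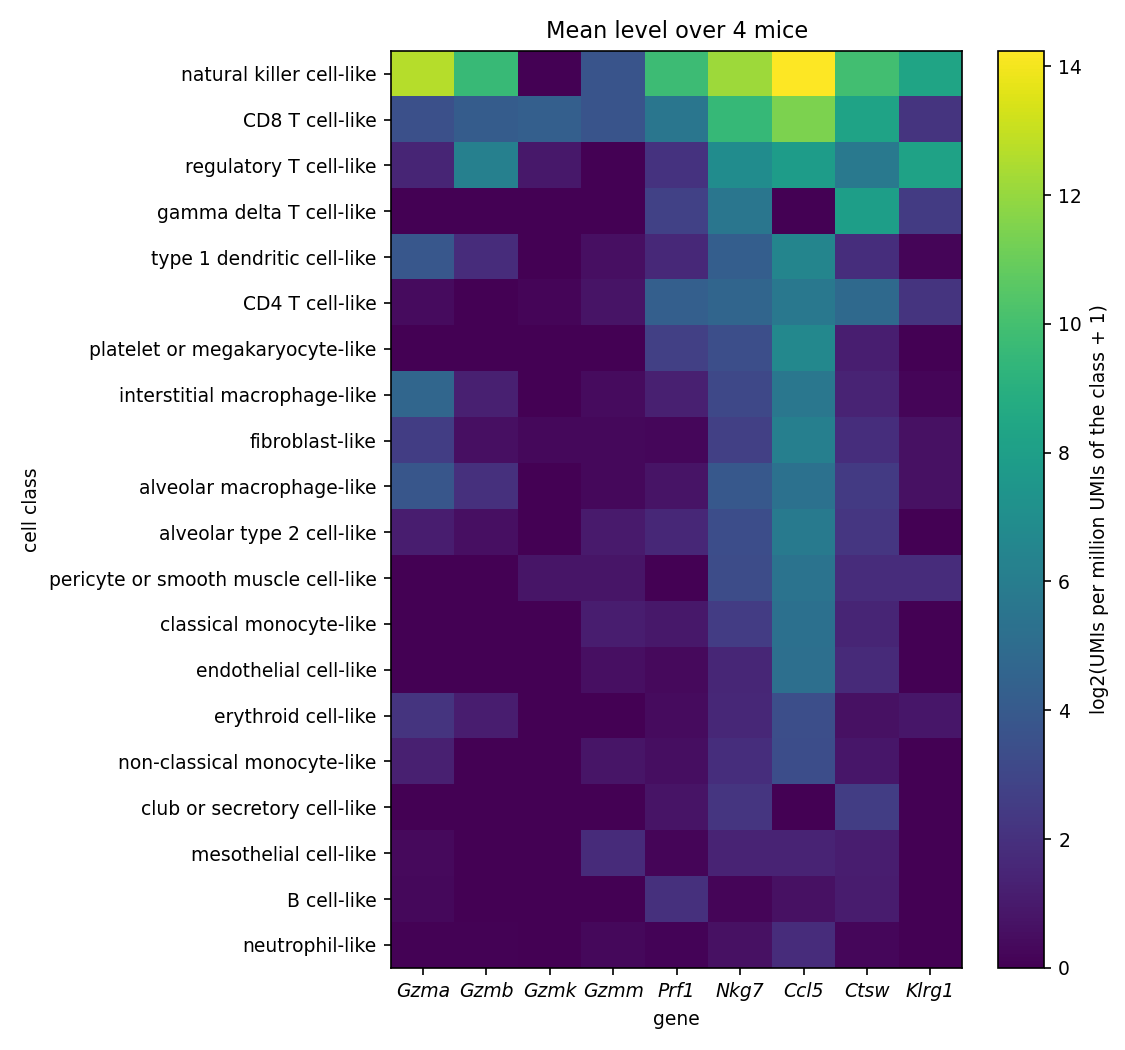
Mean level over 4 mice of each member (columns) in the 20 cell classes used for the order of levels (rows), as log2 of CPM plus 1, dark for low and yellow for high. Natural killer cell-like cells are brightest for each member except Gzmk, which is brightest in CD8 T cell-like cells.

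**Figure D2:**
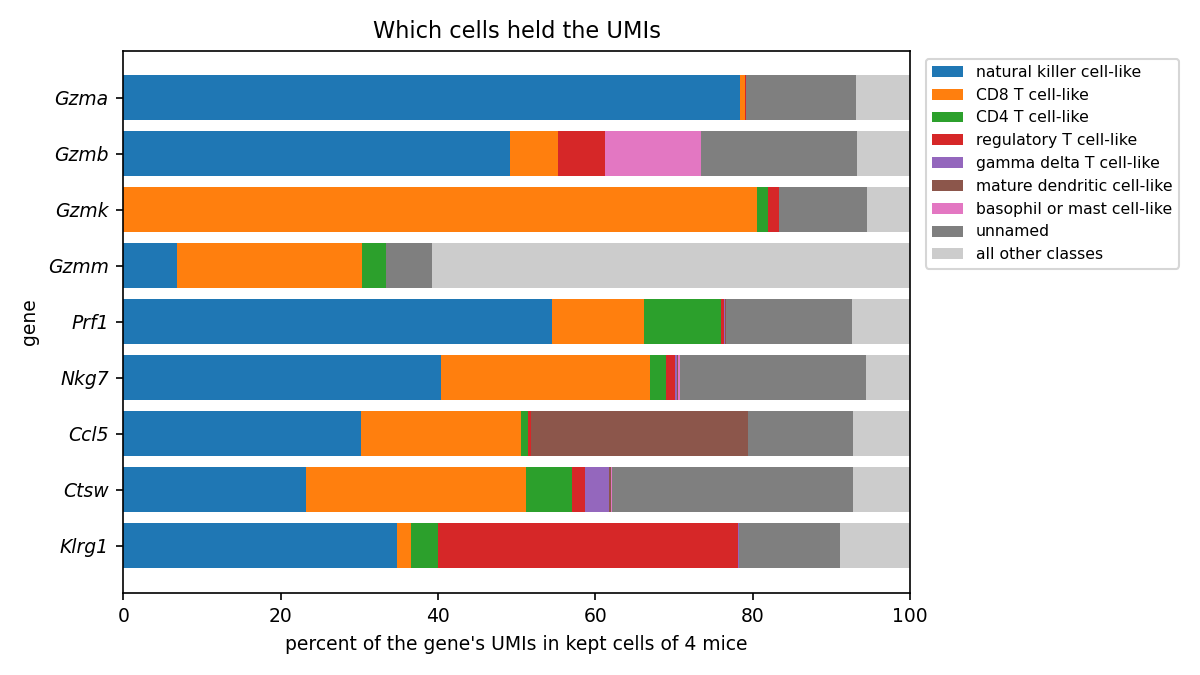
Share of each member's UMIs (percent, over the kept cells of 4 mice) that lay in each cell class, as stacked bars. Gzma is mostly natural killer (78.4%), Gzmk mostly CD8 T (80.6%), and Ccl5 is divided among natural killer, CD8 T and mature dendritic cell-like cells.

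Clusters that could not be named held from 5.88% (Gzmm) to 30.7% (Ctsw) of a member's UMIs. One of them was cluster 10, with 163 cells, a Cd3e UMI in 93.9% and a Cd8a UMI in 2.45% of them, with Ly6c2, Xcl1, Il4, Il2rb and Cxcr3 among its leading genes. Of these cells, 85.3% had a UMI of Nkg7, 82.8% of Ctsw, 67.5% of Ccl5 and 12.3% of Gzmb, and none had Gzmk or Klrg1. Its Ccl5 level was 3593 and 3026 CPM with placebo against 4222 and 5239 CPM with tamoxifen, with no test run on this cluster. The cluster was outside the classes planned for comparison, and the share of all its genes with both tamoxifen mice higher was not computed. In natural killer cell-like cells both tamoxifen mice had a lower Ccl5 level than both placebo mice. A smaller unnamed cluster, number 19, had S100a8, a neutrophil transcript, in 93.9% of its cells beside Gzma in 15.9%, and held 292 Gzma UMIs against 61 in cluster 10.

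Single cells differed in how many members they held. Of the 209 natural killer cell-like cells, 74.2% had a UMI of 5 or more members, with a median of 6. Of the 125 with Gzmb, 115 also had Prf1 and 108 also had Gzma. Of the 627 CD8 T cell-like cells, 2.39% had 5 or more members, with a median of 2, and 94 had none.

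The CD8 class consisted of 4 clusters. Of these, 0, 6 and 20 scored higher for naive than for antigen-experienced T cell markers, with each marker scaled over the lymphoid clusters. Clusters 0 and 6 (290 and 190 cells) had Nkg7 in 196 and 133 cells, Ctsw in 142 and 87 cells and Ccl5 in 8 and 10 cells, and no Gzmb, Gzmk or Klrg1 UMI. In cluster 0, 94.8% of cells and in cluster 6, 84.7% had a UMI of Ccr7, a homing receptor of naive and central memory T cells. Cluster 20 (79 cells), with Cxcr3 in 41.8% of its cells, held 20 of the 24 Gzmm UMIs of the class and Ccl5 in 59 cells. Cluster 22 (68 cells) held 51 of the 58 Gzmk, 48 of the 55 Gzmb, 27 of the 32 Gzma, all 9 Klrg1 and 6013 of the 7961 Ccl5 UMIs of the class. It had Cd8b1 in 64.7% and Cd4 in 11.8% of its cells. These are descriptions of clusters, with no test.

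Cluster 22 was almost wholly from 1 mouse of each group. It made up 9.94% of CD8 T cell-like cells in placebo 1, 1.25% in placebo 2, 19.8% in tamoxifen 1 and 0.813% in tamoxifen 2, which is 18, 1, 48 and 1 cells. The groups overlapped. All UMIs of Gzma, Gzmb, Gzmk and Klrg1 in the CD8 class, those few outside cluster 22 included, came from placebo 1 and tamoxifen 1, and placebo 2 and tamoxifen 2 had no UMI of these 4 genes. Inside cluster 22 in these 2 mice, Gzmb stood at 115 CPM (placebo 1) and 296 CPM (tamoxifen 1), and Gzmk at 214 and 274 CPM, from 7, 41, 13 and 38 UMIs. Of the 68 cells, 17 had Gzmb, 23 had Gzmk and 2 had both, at a median of 2474 UMIs per cell, a depth at which many transcripts go unseen.

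**Figure D3:**
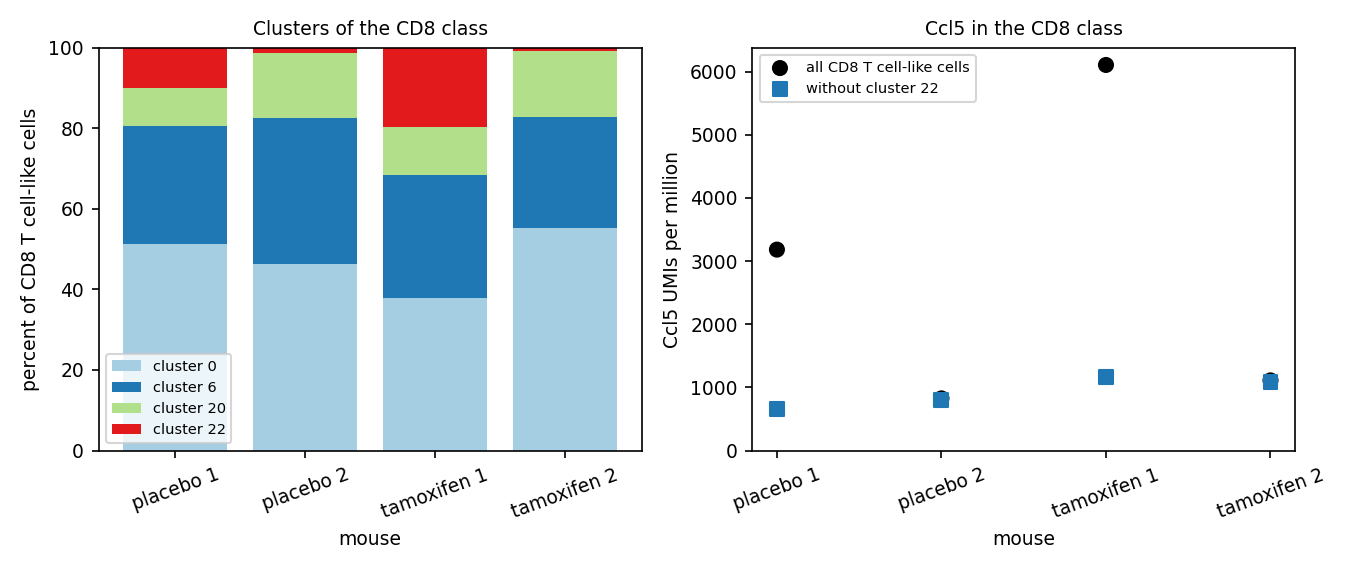
Left, share of CD8 T cell-like cells (percent) in each of 4 clusters, by mouse; right, Ccl5 level (CPM) in the CD8 class of each mouse, with all cells (black) and without cluster 22 (blue). Placebo 1 and tamoxifen 1, which hold nearly all of cluster 22, are the 2 mice with high Ccl5 (3181 and 6104 CPM), and without that cluster all 4 mice lie between 655 and 1160 CPM.

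Tamoxifen was compared with placebo in each class by edgeR's quasi-likelihood F test on UMIs summed per mouse, with Benjamini-Hochberg adjustment over all genes tested in the class. The test estimates the spread between mice with information shared across genes. Its p-values and SE are therefore not the spread of 1 gene alone, which the values of each mouse show. No member passed an adjusted p of 0.05 in any class. Enough UMIs for the test were present for 5 of 9 members in CD8 T, 7 in natural killer, 1 in gamma delta T and 4 in CD4 T cell-like cells, 17 of 36 combinations. Calls were rare in all genes too: 4 of 5495 genes in the CD8 class (0.0728%), 0 of 2737 in the natural killer class (0%), 0 of 1181 in the gamma delta class (0%) and 0 of 8012 in the CD4 class (0%). At an unadjusted p under 0.05 there were 225, 134, 51 and 267 genes, and DESeq2 called 0 genes in each of the 4 classes.

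In natural killer cell-like cells the log2 fold change of the 7 tested members lay between -0.27 and 0.05. Gzma stood at 7081 and 6698 CPM with placebo against 5987 and 5914 CPM with tamoxifen. Both tamoxifen mice were below both placebo mice, by a log2 fold change of -0.21 ± 0.11 (SE, edgeR adjusted p = 0.967). Ccl5 was at 21239.9 and 20638 CPM with placebo and 16609 and 18994 CPM with tamoxifen, again without overlap, at -0.23 ± 0.08 (edgeR adjusted p = 0.967). So 2 of the 7 tested members lay wholly lower and none wholly higher, where 16.2% of all tested genes lay wholly lower and 16.1% wholly higher.

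The other 5 members overlapped between the groups in this class. Gzmb was at 656 and 850.5 CPM with placebo and 592 and 989 CPM with tamoxifen, so that the tamoxifen mice stood on both sides of the placebo mice. Prf1 was at 864 and 1037 CPM with placebo and 676 and 912 CPM with tamoxifen (log2 fold change -0.27 ± 0.21). Nkg7 was at 4959 and 4649 against 3666 and 4924 CPM, Ctsw at 1015 and 915 against 963 and 1011 CPM, and Klrg1 at 275 and 373 against 197 and 418 CPM. The summed level of 6 neutrophil markers was also lower with tamoxifen (120 and 146 CPM against 65.8 and 87.9 CPM), and that of 4 red cell genes ran from 97.2 to 6196 CPM with no order by group. The class's own 8 natural killer cell markers summed to 9213 and 8748 CPM with placebo against 7518 and 8365 CPM with tamoxifen, and 4 of them lay wholly lower and 1 wholly higher. Among the lower ones were Klra4, a natural killer cell receptor, at 709 and 624 against 341 and 385 CPM, and Tyrobp, a signalling adaptor, at 3226 and 3159 against 2589.7 and 2704 CPM. Of 8 markers of antigen-experienced T cells, 6 lay wholly higher in this class, some of them under the filter on low counts. Only 5 of the 8 had enough UMIs for the test. Of these, 3 lay wholly higher and 0 wholly lower, beside 16.1% and 16.2% of all tested genes. The 8 markers summed to 4888 and 4689.7 CPM with placebo against 5221 and 5166 CPM with tamoxifen. The part of these transcripts in the values of the members was not tested.

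In CD8 T cell-like cells each tested member had a positive log2 fold change, but the groups overlapped in 4 of 5. Ccl5 was at 3181 and 825 CPM with placebo against 6104 and 1110.2 CPM with tamoxifen. Placebo 1 and tamoxifen 1 were both far above the other mouse of their group, and the difference of 0.85 ± 0.37 on the log2 scale (edgeR adjusted p = 0.9998) was within the spread between mice. With no filter on low counts it was 0.86 and passed (edgeR adjusted p = 0.0178). It also passed with a term for replicate number in the fit, a pairing that no label gives, as described below. The value depended on single mice. It was 2.04 without placebo 1 (edgeR adjusted p = 1.35e-07), 1.59 without tamoxifen 2 (edgeR adjusted p = 0.000341), 0.22 without placebo 2 and -0.75 without tamoxifen 1. Gzmk, at 22.8 and 0 against 51.2 and 0 CPM, gave 1.23 ± 0.63 (edgeR adjusted p = 0.9998), 0.56 without placebo 2 and 1.85 without tamoxifen 2 (edgeR adjusted p = 0.0223). Without placebo 1, no placebo UMI of Gzmk is left, so that its fitted 7.16 (edgeR adjusted p = 0.0312) is no measure of size. With 1 mouse left in a group, the fit assumes that it varies like the others.

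Ctsw was the 1 tested member that did not overlap in the CD8 class, at 278 and 257 CPM with placebo and 371 and 310 CPM with tamoxifen. Its log2 fold change was 0.36 ± 0.18 (edgeR adjusted p = 0.9998), in a class where 14.5% of tested genes lay wholly higher and 16.3% wholly lower. Nkg7 was at 708 and 552 against 1051 and 660.2 CPM (0.45 ± 0.19), with tamoxifen 2 inside the placebo range. Prf1 was at 43.9 and 41.4 against 60.3 and 43.0 CPM (0.33 ± 0.30), with tamoxifen 2 below placebo 1. The other 4 members were under the filter on low counts. Gzma stood at 14.1 and 0 against 27.3 and 0 CPM, Gzmb at 12.3 and 0 against 54.7 and 0 CPM, Gzmm at 12.3 and 16.6 against 5.69 and 13.6 CPM, and Klrg1 at 10.5 and 0 against 3.42 and 0 CPM.

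Leaving out cluster 22, an alternative chosen after the data were seen, brought the mice of a group together. Ccl5 then stood at 655 and 796 CPM with placebo and 1160 and 1087 CPM with tamoxifen, a log2 fold change of 0.66 ± 0.15 (edgeR adjusted p = 0.135). Nkg7 was at 517 and 552 against 602 and 619.6 CPM, Ctsw at 256 and 255 against 316 and 303 CPM, and Prf1 at 41.3 and 41.6 against 48.7 and 43.9 CPM. All 4 members tested in these cells lay wholly higher with tamoxifen and none passed the test, beside 14.4% of all tested genes that lay wholly higher. Of the 1948 Ccl5 UMIs left, 1725 were in cluster 20, which was 9.39%, 16.2%, 11.9% and 16.3% of the class in the 4 mice in the order above. Within cluster 20 Ccl5 was at 4414 and 3236 CPM with placebo and 5291 and 4238 CPM with tamoxifen, and the groups overlapped.

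Other transcripts differed between the mice of the CD8 class as well. The 4 red cell genes summed to 353 and 378 CPM with placebo and 214 and 215 CPM with tamoxifen, and the 6 neutrophil markers to 102 and 166 against 70.6 and 54.3 CPM. Of 8 natural killer cell markers, 2 were at 0 in all mice and the sum was 36.9 and 44.2 against 55.8 and 11.3 CPM. The part of these transcripts in the values of the members was not tested. The 4 genes that passed were S100a9, Trbv31, Gm26917 and Ctla2a. S100a9, Trbv31 and Gm26917 were lower in both tamoxifen mice. Ctla2a had a positive log2 fold change (1.53 ± 0.32, edgeR adjusted p = 0.0461), at 84.4 and 49.7 against 309.7 and 63.3 CPM. Tamoxifen 1 alone was high for Ctla2a, and tamoxifen 2 lay inside the placebo range.

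**Figure D4:**
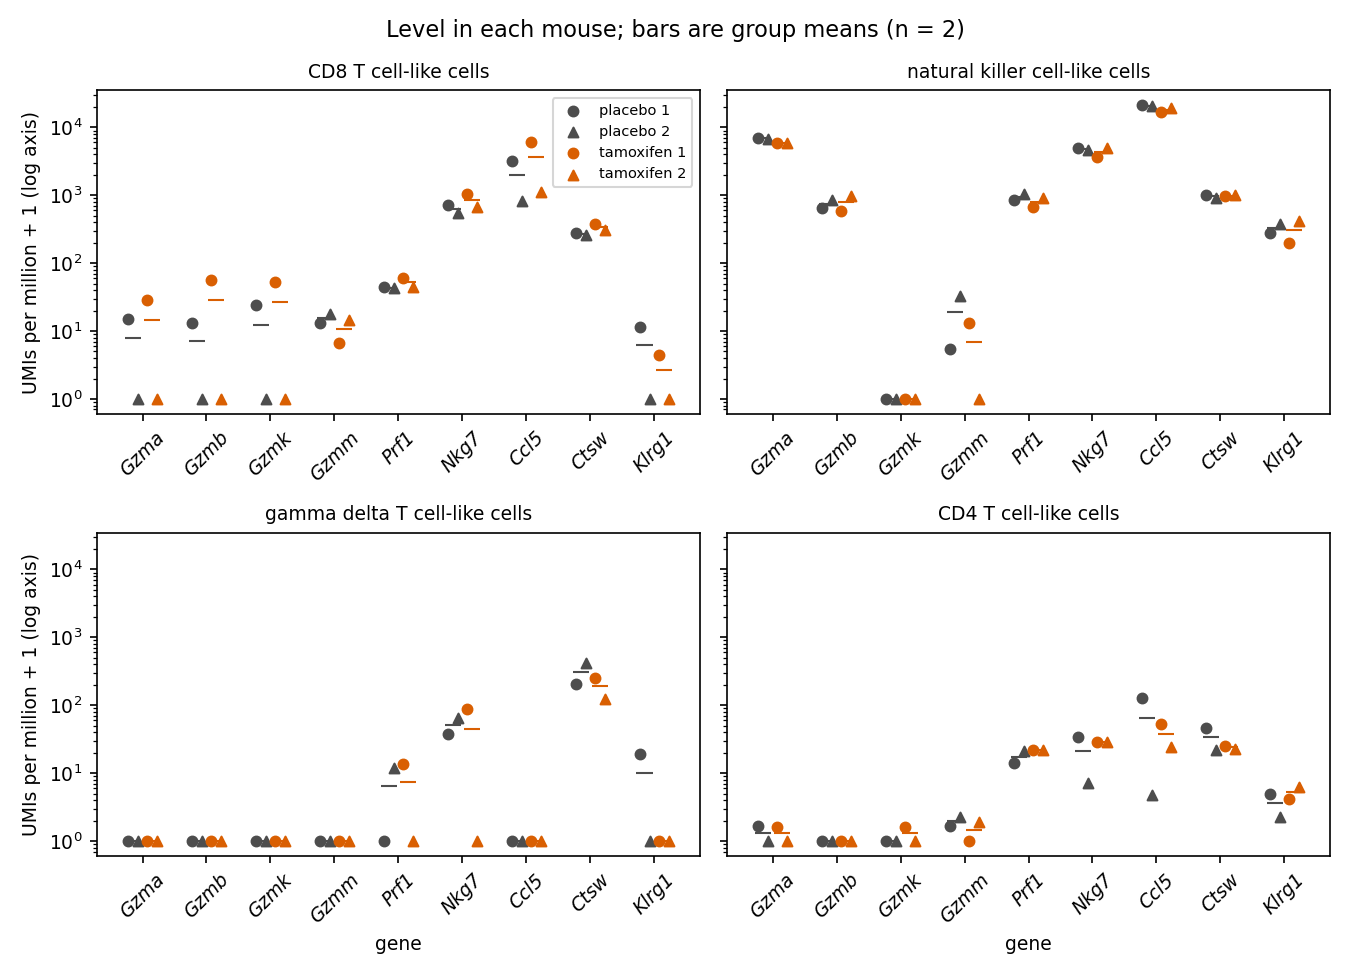
Level of each member in each mouse (CPM plus 1, log axis) in 4 classes, grey for placebo and orange for tamoxifen, circles for number 1 and triangles for number 2 mice, with bars at group means of 2 mice. The groups overlap for most members, and in the CD8 class the circles (placebo 1 and tamoxifen 1) are the mice with Gzma, Gzmb and Gzmk.

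In gamma delta T cell-like cells Gzma, Gzmb, Gzmk, Gzmm and Ccl5 had no UMI, Prf1 had 2 and Klrg1 had 1. Ctsw was at 202 and 418 CPM with placebo and 253 and 124 CPM with tamoxifen, with overlap (log2 fold change -0.75 ± 0.44, edgeR adjusted p = 0.899). Ctsw was the 1 member tested there, in a class where 16.3% of genes lay wholly higher and 18.8% wholly lower. Nkg7 had 15 UMIs, at 36.7 and 64.3 against 88.4 and 0 CPM. The 6 neutrophil markers summed to 1926 CPM in placebo 1 and to 62.1 to 118 CPM in the other mice, and their part in these values was not tested.

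CD4 T cell-like cells carried perforin at a low level and Nkg7, Ccl5 and Ctsw in 2.88%, 1.55% and 6.73% of cells. Prf1 was at 13.1 and 19.9 CPM with placebo and 20.6 and 21.1 CPM with tamoxifen. Both tamoxifen mice were higher, by a log2 fold change of 0.43 ± 0.32 (edgeR adjusted p = 0.99997), where 14% of genes lay wholly higher and 15.1% wholly lower. Ccl5 was at 126 and 3.73 CPM with placebo and 51.2 and 22.9 CPM with tamoxifen (-0.96 ± 0.57, edgeR adjusted p = 0.99997), and the placebo mice stood on both sides of the tamoxifen mice. Without placebo 1 the Ccl5 value turned to 3.31, and without placebo 2 it was -1.65 (edgeR adjusted p = 0.0388). With no filter on low counts it was -0.95 and passed (edgeR adjusted p = 0.0122). Cluster 8 (171 cells) had the highest score for antigen-experienced T cell markers among the CD4 clusters. It held 274 of the 303 Ccl5 and 90 of the 132 Nkg7 UMIs of this class.

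Ctsw was at 45.9 and 21.2 against 24.4 and 22 CPM in the CD4 class (-0.63 ± 0.29), with placebo 1 alone standing out. Nkg7 was at 33.5 and 6.22 against 27.5 and 28.2 CPM (0.26 ± 0.38). Gzma, Gzmk and Gzmm, with 2, 1 and 3 UMIs in 1739 cells, were at a level like that of B cell-like cells, which had 3, 0 and 0 UMIs in 1745 cells, and are read as background. Gzmb had none in 1739 cells, which allows a share of cells with a UMI of up to 0.173%. Klrg1 had 18 UMIs, all in cluster 8, at 3.94 and 1.24 against 3.12 and 5.29 CPM, whereas none of the 93 Prf1 UMIs of the class lay in cluster 8. Foxp3, a marker of regulatory T cells, had a UMI in 11.7% of cluster 8 cells. Whether those cells held the Klrg1 UMIs was not tested. The 4 red cell genes summed to 417 and 116 CPM with placebo against 354 and 1420.0 CPM with tamoxifen, with tamoxifen 2 far above the rest. Of 7 markers of naive T cells 3 lay wholly higher with tamoxifen and 4 overlapped, where 14% of all tested genes lay wholly higher. The median log2 fold change of the 7 was 0.071, beside 0.0017 for all genes. Igfbp4, among the 3, was at 354 and 436 against 507 and 561 CPM. The part of these transcripts in the CD4 values was not tested.

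**Figure D5:**
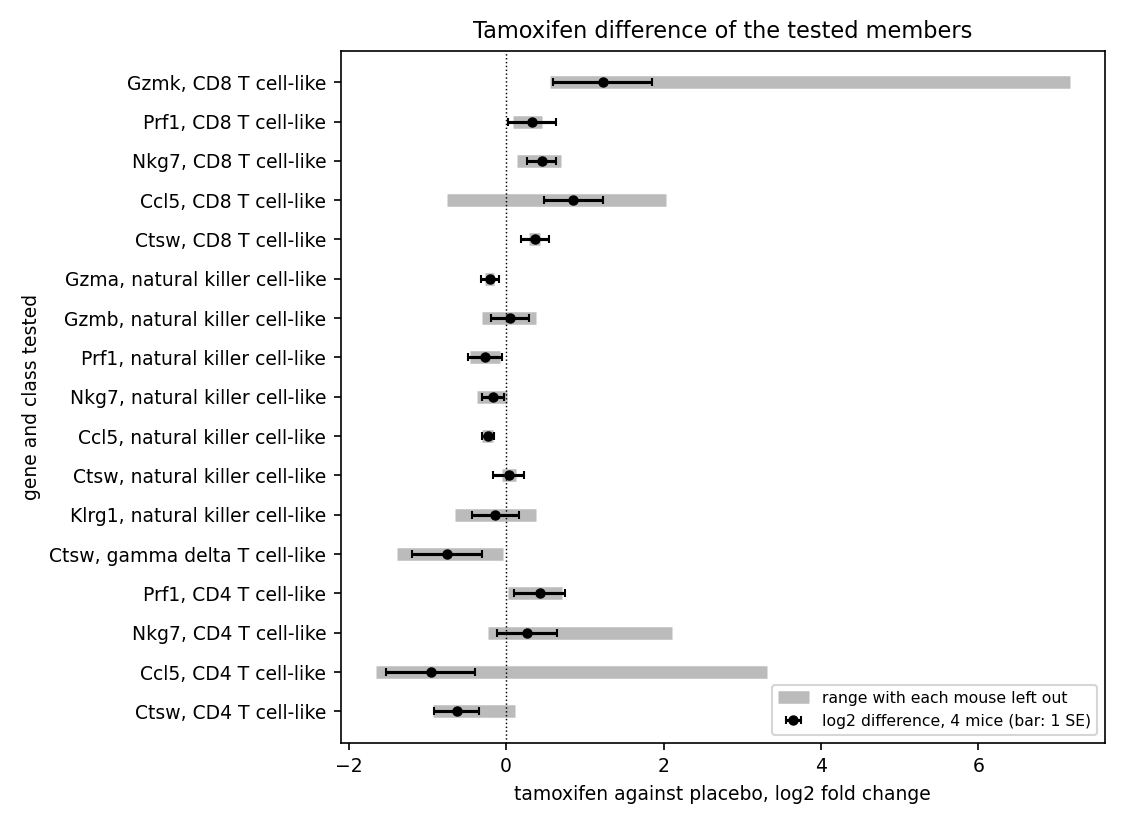
Log2 fold change with tamoxifen (points, 1 SE) of the 17 tested combinations of member and class, with the range when each mouse is left out in turn (grey). Ccl5 in the CD8 and CD4 classes spans 0 widely (-0.75 to 2.04 and -1.66 to 3.31), while Ccl5 and Gzma in natural killer cell-like cells stay below 0 (-0.31 to -0.17 and -0.27 to -0.16).

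Whether the tamoxifen difference of a gene varied over the 4 classes was tested in 1 edgeR fit of the 16 sums with a term for each mouse. It was found for 0 of 6234 genes (0%), with 236 at an unadjusted p under 0.05. For the 7 members tested the adjusted p was 1, and Ctsw, the lowest, had an unadjusted p of 0.0113. The Ccl5 values of opposite sign in CD8 T and natural killer cell-like cells (0.85 and -0.23) are thus not shown to differ.

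The share of cells with a UMI was compared after each cell was thinned to 1000 UMIs. With 2 mice per group, the exact permutation test (two-sided) cannot give a p under 0.33. In CD8 T cell-like cells, the share with Ccl5 was 14.8% and 15% with placebo against 29.3% and 14.0% with tamoxifen, so that tamoxifen 1 alone stood apart. Without thinning it was 16.6% and 17.5% against 32.1% and 17.9%. Thinning left out 5, 0, 4 and 2 CD8 T and 6, 3, 1 and 8 natural killer cell-like cells of placebo 1, placebo 2, tamoxifen 1 and tamoxifen 2. The share with Nkg7 was 43.8% in each mouse with placebo, against 50.2% and 43.0%. In natural killer cell-like cells Gzma was found in 74.1% and 69.0% against 72.9% and 63.6% of cells, Gzmb in 40.7% and 48.3% against 31.2% and 54.5%, and Prf1 in 59.3% and 51.7% against 52.1% and 51.5%. Among B cell-like cells the thinned share was at most 0.787% for any member in any mouse, and among fibroblast-like cells at most 1.36%. Ctsw in gamma delta T cell-like cells was found in 28.6% in each placebo mouse against 16.7% and 0% (exact permutation p = 0.33, the smallest possible), and without thinning in 64.3% and 57.1% against 52.6% and 27.8%. Prf1 in CD4 T cell-like cells was found in 1.76% and 0.922% against 2.48% and 1.78% (exact permutation p = 0.33), and without thinning in 3.07% and 7.21% against 5.79% and 6.06%, where the groups overlapped. After Benjamini-Hochberg adjustment over the 36 comparisons of member and class, p was 1 for each.

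The wider granule pathway was read from lists of genes. Of 13 genes of granule biogenesis, serpins and proteases, 8 were tested in natural killer cell-like cells. None passed, 4 lay wholly lower and 1 wholly higher (16.2% and 16.1% of all genes tested in the class), and the median log2 fold change was -0.25, beside 0.018 for all genes. Lamp1, a granule membrane protein, was at 182 and 194 against 156 and 98.9 CPM, and Ap3b1, which sorts proteins to lysosomes, at 102 and 89.1 against 71.8 and 66.0 CPM. In CD8 T cell-like cells 8 were tested and none passed, with a median of 0.16 beside -0.0035 for all genes. There Serpinb6b, a protease inhibitor, was at 17.6 and 19.3 against 29.6 and 33.9 CPM (0.77 ± 0.43), and Lyst, which governs lysosome size, at 45.7 and 33.1 against 33.0 and 20.3 CPM (-0.50 ± 0.36).

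Of 12 exocytosis genes, 8 in natural killer and 9 in CD8 T cell-like cells were tested, none passed, and the medians were 0.11 and 0.05. Among 10 death ligands and effector cytokines, Ccl4 was at 456 and 826 against 1896 and 769 CPM in natural killer cell-like cells (1.13 ± 0.34, edgeR adjusted p = 0.918) and at 49.2 and 5.52 against 179.9 and 0 CPM in CD8 T cell-like cells. In both classes tamoxifen 1 alone was high. Of 16 cytotoxic receptor genes, 14 were tested in natural killer cell-like cells, none passed, 5 lay wholly lower and 1 wholly higher (again beside 16.2% and 16.1% of all genes), with a median of -0.17 beside 0.018. The lower ones included Itgam, an integrin of mature natural killer cells, at 84.2 and 97.2 against 53.8 and 44.0 CPM, and Cd244a, at 213 and 259 against 161 and 198 CPM.

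Genes of cytokine signalling, transcription and migration passed in none of the 4 classes either. In natural killer cell-like cells Il2rb, a receptor chain for interleukin 15, was at 1103 and 1207 against 1423 and 1418 CPM. Lef1, a regulator of less mature cells, was at 62.0 and 64.8 against 108 and 120.9 CPM, and Bhlhe40 at 284 and 267 against 179 and 198 CPM. Of 7 tested migration genes 2 lay wholly higher and 3 wholly lower, beside 16.1% and 16.2% of all genes tested. Their median log2 fold change was 0.10, beside 0.018 for all genes. Itga4, an adhesion receptor, was at 350.1 and 494 against 275 and 219.8 CPM, and Ccr2, a chemokine receptor, at 124 and 105 against 203 and 154 CPM. In CD8 T cell-like cells Bach2, which restrains effector genes, was at 130.0 and 108 against 85.4 and 70.1 CPM (-0.59 ± 0.23, edgeR adjusted p = 0.9998). None of 6 further granzyme genes (Gzmc to Gzmg and Gzmn) had enough UMIs for the test in any class.

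The genes most like each member over the 20 classes, by Pearson's r of log2 of mean CPM plus 1 among 14705 genes, were as follows. Gzma was nearest to Ncr1, an activating receptor of natural killer cells (r = 0.960), Gzmb to Ifng (0.919), Gzmm to Eomes (0.885) and Prf1 to Gm43647 (0.930). Ctsw was nearest to Cst7, Il2rb and Tbx21 (0.962, 0.947 and 0.947), and Nkg7 to Cd7 (0.930). Gzmk was nearest to Fam71b and Cd8a (0.951 and 0.922), Ccl5 to Crtam (0.825) and Klrg1 to Gzmc (0.930). Ncr1, Eomes and Cd8a are among the markers used to name the classes, so their likeness to members partly restates those names. Gzmk and Gzmm rest on 72 and 102 UMIs. The points share libraries and differ in depth, and no p is given.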

How the data were processed

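Raw UMI counts per gene and barcode were deposited per mouse; the authors made them with Cell Ranger (8.0.1 and mm10 per the submitters' processing notes, 5.0.0 per the file headers). Barcodes with under 250 genes or over 15% mitochondrial UMIs were left out, and cells with a doublet score over 0.25 (scanpy 1.11.5, Scrublet), 1.23% to 2.16% of a library. Cells were clustered (leidenalg 0.10.2) without the members and related cytotoxic genes among the 2000 variable genes, into 85 clusters, and 3762 lymphoid cells again into 29. Names come from marker lists. The thresholds for naming were set after the clusters, their cells per mouse and the share of their cells with each member (not by treatment) had been seen, and the members and lists were chosen with earlier results of these data known. UMIs of each class were added up within a mouse, and these sums were tested with edgeR 4.0.16 (TMM scaling, filterByExpr). CPM values are not TMM-scaled. All members are named in all 4 classes. List genes are named from those that passed or, without overlap between groups, had one of the 2 largest changes in a list and class, and likeness names from the 3 nearest genes; others, such as Ccl4, were chosen after their values were seen. The procedure was tested on simulated counts with 1 dispersion for all genes of a class. Such counts cannot show how it treats genes carried by 1 mouse of each group. DESeq2 1.42.0 was an alternative. Depth, doublets, filters, cell assignment and each mouse were varied. Nothing says whether the mice shared a cage or litter. Counting error only is covered by the limits given for counts of 0.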

Additional observations from a re-analysis of the deposited data

How the results depend on the processing

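Over the 17 combinations of member and class, 212 alternative values were computed, of which 190 kept direction and side of the threshold, 14 reversed and 8 passed the threshold; for each change named here the cause was not tested unless fewer mice or other genes tested are named. The number of genes called in the CD8 class (4) became 0 with DESeq2, 14 with no filter on low counts, 10 with the replicate block, 1 with cells assigned singly by markers, 0 with equal cells per mouse and 0 with the cytotoxic genes kept for clustering. With no filter it was 22 in the natural killer, 4 in the gamma delta and 6 in the CD4 class (each 0 before). In the CD4 class it was 11 with cells assigned singly, 2 with equal cells, 2 without naive clusters and 1 with regulatory T clusters added. Leaving out each mouse in turn gave 3 to 27 calls in the CD8, 0 to 20 in the natural killer, 1 to 9 in the gamma delta and 0 to 3 in the CD4 class, and 2 to 51 for differences that vary over classes.

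Values that reversed were Gzmb in natural killer (-0.25) and Ctsw in gamma delta T cell-like cells (0.17) with cells assigned singly, and Gzmb in natural killer (-0.088) and Nkg7 in CD4 T cell-like cells (-0.30) with equal cells. With each mouse left out, values that crossed 0 ran from -0.75 to 2.04 for Ccl5 in the CD8 class. In the natural killer class they ran from -0.31 to 0.38 for Gzmb, -0.059 to 0.12 for Ctsw, -0.64 to 0.38 for Klrg1 and -0.37 to 0.0069 for Nkg7. In the CD4 class they ran from -1.66 to 3.31 for Ccl5, -0.93 to 0.11 for Ctsw and -0.23 to 2.11 for Nkg7. With no filter Ccl5 passed in the CD8 class (0.86, edgeR adjusted p = 0.0178) and in the CD4 class (-0.95, edgeR adjusted p = 0.0122).

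No label says that replicate numbers pair the mice. The correlation of deviations of same-numbered mice was 0.11, 0.049, 0.021 and -0.058 in the CD8, natural killer, gamma delta and CD4 classes. Such values over all tested genes cannot show whether same-numbered mice shared a batch, which was not tested. Cluster 22 of the CD8 class had 18 cells in placebo 1 and 48 in tamoxifen 1, against 1 in placebo 2 and 1 in tamoxifen 2. With the replicate block Ccl5 in the CD8 class was 0.72 (edgeR adjusted p = 4.68e-05), and no other member's call changed. The block adds a term to a fit of few mice, so fewer degrees of freedom are left for the spread. That term also takes up the difference between number 1 and number 2 mice, in which cluster 22 stood apart. The CD8 class without its naive clusters could not be fitted, since 1 cell was left in placebo 2 and 1 in tamoxifen 2. Depth limits the gamma delta class most, where 1 UMI was worth up to 18.3 CPM.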

Other observations

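Transcripts of 2 T cell receptor segments were among the leading genes of cluster 22 of the CD8 class, and were looked at after their values were seen. A Trbv19 UMI was found in 9 of 18 cells of placebo 1 and 26 of 48 cells of tamoxifen 1, and a Trav4-2 UMI in 2 and 20 cells. All cells with Trav4-2 also had Trbv19, 2 in placebo 1 and 20 in tamoxifen 1. In the rest of the CD8 class the share with Trbv19 was 14.7%, 12.7%, 19.5% and 20.5% in placebo 1, placebo 2, tamoxifen 1 and tamoxifen 2, and that with Trav4-2 was 0%, 3.8%, 2.56% and 0%.

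Cluster 26, an unnamed lymphoid cluster of 17 cells led by haemoglobin genes, had a Gzma UMI in 7 cells, Nkg7 in 11 and Ccl5 in 11. Of 90 group 2 innate lymphoid cell-like cells, 16 had a UMI of Klrg1, 20 of Ctsw and 1 of Nkg7. Their Ccl5 level was 212 and 248 CPM in the placebo mice and 456 and 358 CPM in the tamoxifen mice, with no test run on this class. The class was outside those planned for comparison, and the share of all its genes with both tamoxifen mice higher was not computed. These values came from 33 and 11 cells with placebo and 21 and 25 with tamoxifen, where 1 UMI was worth 8.13 to 17.7 CPM.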
